A study of Caenorhabditis elegans with 71 samples.

Results

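This account covers the second larval window of the lin-4 mutant of Caenorhabditis elegans, set against its first. Of the 71 libraries in the series, 12 were used for it: the 6 taken at 18, 20, 22, 24, 26 and 28 h after feeding, and the 6 taken at 6, 8, 10, 12, 14 and 16 h. They were chosen by their labelled time alone and belong to 1 population of lin-4(e912), which the labels call a knockout, grown at 20C and sampled in 25 libraries in all. The change in wild type N2 at 20C, over 12 libraries of the same labelled times from 1 other population, served for comparison. In every group, embryos were freed with hypochlorite, larvae hatched without food and so paused in the first stage, with hours counted from the moment they were given OP50 bacteria. Poly(A) RNA of whole larvae was sequenced, with all time points of a population barcoded and pooled. The study asked how cyclic larval expression behaves, and what the loss of lin-4 does to it. Each hour is 1 library, so the SDs, standard errors and p-values below measure spread among hours within a culture, not among cultures. An effect of genotype cannot be told apart from one of the particular culture.

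The microRNA lin-4 pairs with sites in the 3′ UTRs of lin-14 and lin-28 and lowers their output during the first stages, which lets larval cells move on to later fates. Mutants without it repeat first-stage divisions while they go on molting. Each larval stage ends in a molt: the epidermis makes a new cuticle, mostly of collagens, under the old one, and many epidermal and pharyngeal genes switch on and off once a cycle, each at its own phase. The windows compared here are set by hours, and the labels do not say in which phase or stage the larvae of a given hour were.

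Values are RPKM as deposited, read counts scaled to gene length and to library size. Depth, read from the steps between low values, was estimated at 29.784 to 35.354 M mapped reads at 18 to 28 h and at 23.102 to 32.685 M at 6 to 16 h. In wild type it was lower at 18 to 28 h, at 12.353 to 22.399 M, and was 13.326 to 24.58 M at 6 to 16 h. Changes are differences of mean log2(RPKM + 1), later window minus earlier, with their standard error, and they understate the change of low genes. Calls required a change of at least 1 on that scale and a limma p under 0.05 after Benjamini-Hochberg adjustment over all genes tested. Most transcripts of the adult lists were low on average over the 12 libraries. None of 6 yolk protein genes and 6 of 54 spermatogenesis genes reached the mean of 1 RPKM needed for a test. The lin-4 transcript itself was not analysed here.

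The libraries of the windows were first compared for likeness of phase. The main comparison of 6 against 6 libraries was not matched by phase. For each library the deviation of every gene from its window's mean was taken, and these deviations were correlated between windows, across genes, which are not independent. At the 12 h spacing the correlation was -0.52 between 18 and 6 h, 0.33 between 20 and 8 h, 0.71 between 22 and 10 h, 0.37 between 24 and 12 h, 0.32 between 26 and 14 h and 0.76 between 28 and 16 h. The library at 18 h was most like those at 16 h (0.72) and 14 h (0.59), and that at 20 h was most like 6 h (0.45). In wild type at the same spacing the 6 pairs lay between 0.30 and 0.80. At a spacing of 14 h, which takes the mutant libraries of 20 to 30 h in place of 18 to 28 h, the 6 mutant pairs correlated at 0.33 to 0.72. Pairs 12 h apart are given below as a count of pairs, and results that rest on the 6 and 18 h libraries are given with and without them.

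**Figure D1:**
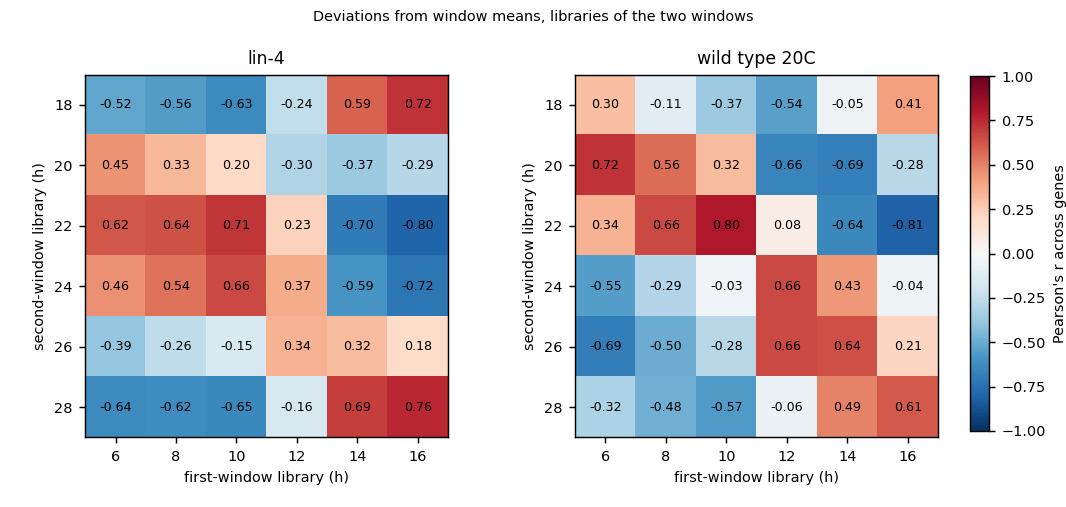
Correlation, across genes, of each library's deviation from its window's mean between second-window libraries (rows, h) and first-window libraries (columns, h), for lin-4(e912) on the left and wild type at 20C on the right. In the mutant the diagonal of pairs 12 h apart holds a value of -0.52 at 18 against 6 h, and in wild type the diagonal runs between 0.30 and 0.80.

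Of 12881 genes tested in the mutant, 306 were called higher at 18 to 28 h than at 6 to 16 h (2.38%) and 258 lower (2%). The median change was 2.00 among the genes called higher and -1.14 among those called lower. The direction was the same in all 6 pairs 12 h apart for 265 of the 306 and for 233 of the 258. These genes were called on their change in the same 12 libraries, so the pair counts are no separate support. They were not made over all genes. All 6 later libraries lay above all 6 earlier ones for 257 genes tested (2%) and below them for 1982 (15.4%). Among the genes called, this held for 130 of those higher and for 156 of those lower. Of the genes called higher, 56 were under 1 RPKM in every library of 6 to 16 h, and 44 of these reached 10 RPKM or more at 18 to 28 h. Such genes, with grd-6, bli-5, abu-6 and ins-13 named below among them, met the required mean of 1 RPKM only through the later window. Their direction was thus fixed by that filter, and their share over all genes was not counted. With pairs 12 h apart as a block, 336 genes were called higher (2.61%) and 254 lower (1.97%). Without the 6 and 18 h libraries 273 were called higher and 249 lower, and over 22 to 28 h against 10 to 16 h 232 (1.82%) and 284 (2.23%). The later window of 20 to 30 h with pairs 14 h apart as a block gave 543 higher (4.21%) and 302 lower (2.34%). Without the 6 h library alone 165 were called lower. The pseudocount moved the balance: 355 genes were called higher and 714 lower at 0.1 RPKM, and 173 and 49 at 5 RPKM.

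The scale matters for the lower calls. The median change of all genes was -0.21 on the deposited scale. After libraries were rescaled by median-of-ratios factors it was 0.05, and 353 genes were called higher (2.74%) and 81 lower (0.629%), so that higher calls made up 81.3% of calls in place of 54.3%. Rescaled, all 6 later libraries lay above all earlier ones for 822 genes (6.38%) and below them for 635 (4.93%). Of the 306 higher calls 301 were also called on that scale, and of the 258 lower calls 81. At a pseudocount of 0.1 RPKM the changes of grd-6, dct-19, tag-293, bli-5, abu-6, ins-13, ins-11, lips-17 and clec-230, named below, were over 1.5 times as large. At 5 RPKM those of grd-14, F35B3.4, lips-6, grd-6, far-3, pax-3, ptr-20, nas-38, nas-7, abu-7, abu-6 and clec-230 were called but smaller by over 1.5 times, between -1.01 and -1.24 for pax-3 and far-3 and between 1.01 and 2.64 for the rest. Collagen transcripts took 3.06 to 5.70% of summed RPKM per library at 18 to 28 h (median 4.37%), against 1.32 to 1.99% at 6 to 16 h (median 1.60%).

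**Figure D2:**
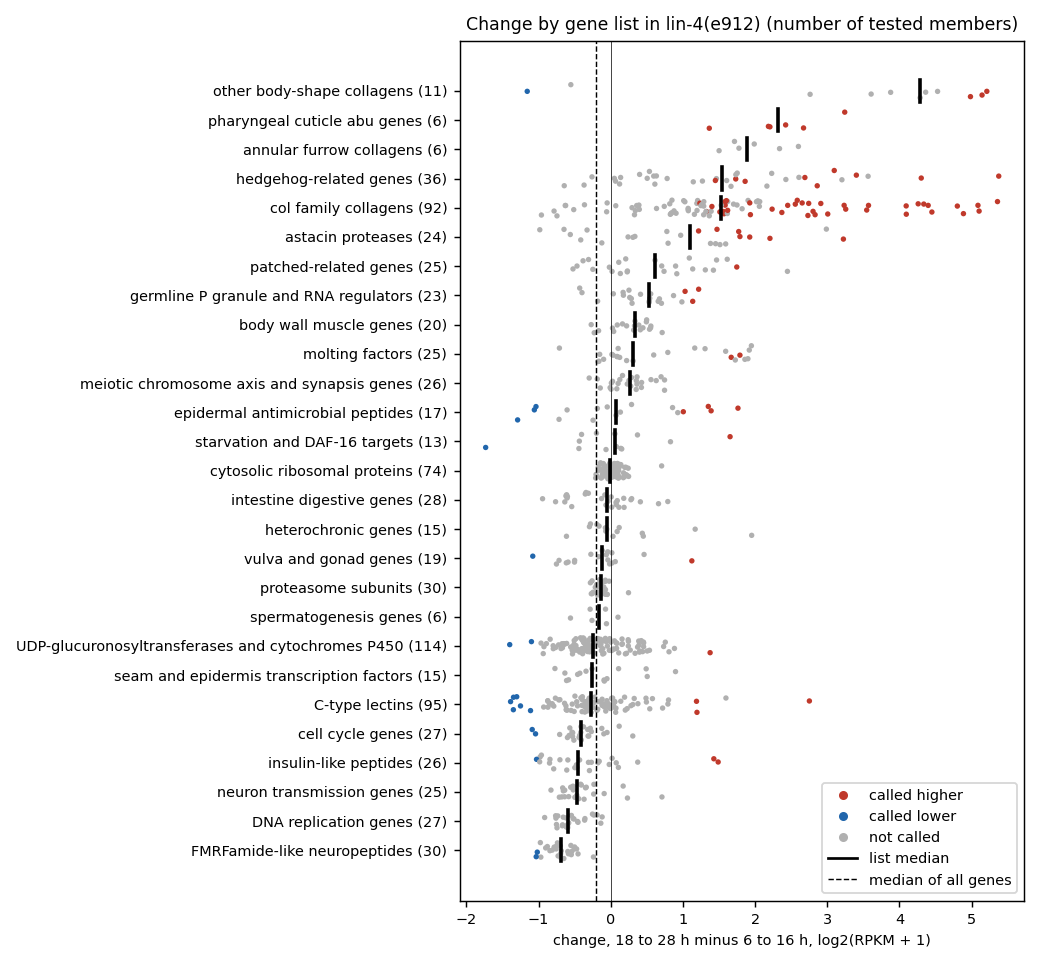
Change of each tested member of the gene lists (points), as 18 to 28 h minus 6 to 16 h on the log2(RPKM + 1) scale, in lin-4(e912); red members were called higher, blue ones lower and grey ones neither, black bars are list medians and the dashed line is the median of all genes, -0.21. The medians of the 6 lists at the top lie between 1.09 and 4.29, while replication and neuropeptide lists lie at the bottom, at -0.60 and -0.70.

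The collagens that shape the body were near 0 early in the first window and abundant later. Of 11 tested members of this list outside the furrow group, 3 were called higher and 1 lower, with a median change of 4.29 against -0.21 over all genes. These are 27.3% and 9.09%, against 2.38% and 2% of all genes. The procuticle collagen dpy-5 (F27C1.8) had 2271, 723, 88.6, 97.6, 588 and 2149 RPKM at 18 to 28 h, in order of time, against 0.139, 0, 0.547, 15.5, 445 and 726 RPKM at 6 to 16 h. The last 2 early libraries were thus above the lowest later ones, and the windows overlapped, although each later library exceeded the one 12 h before it. Its change was 5.14 ± 1.80 (adjusted p = 0.0378).

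The body-shape collagens dpy-4 (Y41E3.2) and dpy-13 (F30B5.1) followed the same course. The first had 1882, 572, 73.5, 77.1, 457 and 1865 RPKM at 18 to 28 h, against 0.0779, 0.0428, 0.207, 8.04, 313 and 542 RPKM at 6 to 16 h, a change of 5.21 ± 1.75 (adjusted p = 0.0318). The change of dpy-13 was 4.98 ± 1.70 (adjusted p = 0.0343), with 103 to 2348 RPKM (median 686) at 18 to 28 h, against 0.459 to 737 RPKM (median 8.11) at 6 to 16 h. Each of these 3 calls was lost in 8 of the 12 fits that leave out 1 library, while the changes ran over 4.52 to 6.33 for dpy-4, 4.37 to 6.27 for dpy-5 and 4.27 to 6.06 for dpy-13, with adjusted p up to 0.0718, 0.0841 and 0.0772. The list held 0 higher calls when the library of 18, 20, 26, 28, 6, 8, 10 or 12 h was left out by itself, 3 without 22 or 24 h, 8 without 14 h and 9 without 16 h. Without 6 and 18 h together the changes of dpy-4, dpy-5 and dpy-13 were 4.10, 3.98 and 3.92, with adjusted p of 0.112, 0.129 and 0.119, and over 22 to 28 h against 10 to 16 h they were 2.85, 2.60 and 2.64, with adjusted p of 0.301, 0.34 and 0.318. With the later window moved to 20 to 30 h and pairs 14 h apart as a block, 9 members were called.

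Other members did not pass. The collagen sqt-3 differed by 4.29 ± 1.66 (adjusted p = 0.0557), rol-6 by 4.36 ± 1.73 (adjusted p = 0.0606) and sqt-1 by 4.53 ± 1.83 (adjusted p = 0.0655). For rol-6 the later window ran at 61.5 to 1411 RPKM (median 385) and the earlier at 0.103 to 594 RPKM (median 12.3). The member that fell was dpy-14, with 0.237 to 0.871 RPKM (median 0.501) at 18 to 28 h, against 0.778 to 8.28 RPKM (median 2.22) at 6 to 16 h, a change of -1.16 ± 0.33 (adjusted p = 0.0147). Its call was absent without the 6 h library, over 22 to 28 h against 10 to 16 h, and at a pseudocount of 5 RPKM.

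The 6 furrow collagens are those needed for the ring-shaped furrows of the cuticle, and 0 of 6 were called in either direction. Over all genes 2.38% were called higher and 2% lower, so 0 of 6 does not set this list apart. Their median change was 1.88. For dpy-7 (F46C8.6) the values were 344, 20.7, 63.5, 114, 339 and 355 RPKM at 18 to 28 h, against 0.381, 1.69, 25.8, 141, 526 and 559 RPKM at 6 to 16 h, a difference of 1.78 ± 1.53 that did not pass (adjusted p = 0.376). Its peak was thus lower in the later window and its lowest value higher. The range between the highest and lowest library, as a list median, was 4.10 log2 at 18 to 28 h and 8.41 log2 at 6 to 16 h. For the other body-shape collagens these ranges were 4.61 and 8.92 log2.

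**Figure D3:**
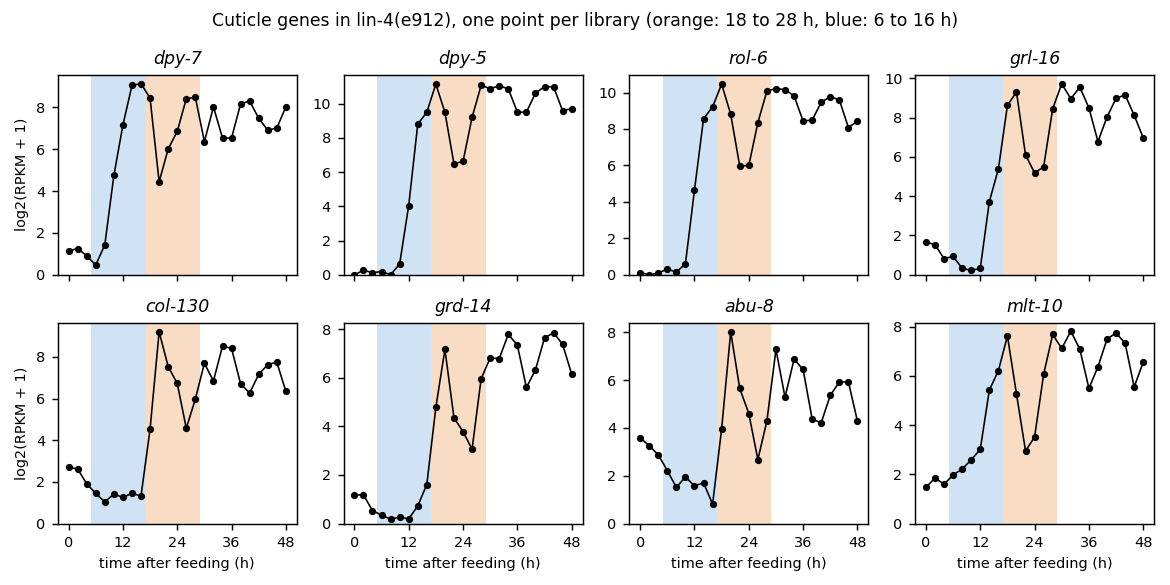
Level of 8 genes of the cuticle and of molting on the log2(RPKM + 1) scale (vertical) in all 25 lin-4(e912) libraries from 0 to 48 h (horizontal), with 18 to 28 h shaded orange and 6 to 16 h shaded blue. dpy-7, dpy-5 and rol-6 climb within the blue window, whereas col-130, grd-14 and abu-8 stay low in all of it and are highest at 20 h within the orange one.

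The col genes, a large family of cuticle collagens, held more higher calls than any other list. Of 92 tested members 39 were called higher and 0 lower (42.4%, against 2.38% of all genes), and the median change was 1.52. All 6 later libraries lay above all 6 earlier ones for 23 of the 92, against 2% of all genes. Without 6 and 18 h, 50 were called higher, and the fits that leave out 1 library called 31 to 52. With pairs as a block, 65 were called over 20 to 30 h, 14 h apart, and 60 over 22 to 28 h against 10 to 16 h, 12 h apart. In wild type 18 were called higher and 0 lower, with a median of 1.43.

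Some col genes stayed low in the mutant at all hours of 6 to 16 h. Levels of col-130 (F08G5.4) were 22.2, 588, 184, 105, 22.8 and 61.9 RPKM at 18 to 28 h, against 1.72, 1.06, 1.65, 1.39, 1.73 and 1.5 RPKM at 6 to 16 h, and no library of the windows overlapped. Its change was 5.10 ± 0.68 (adjusted p = 0.00122). The highest later library was that of 20 h, and at 30 to 40 h the mean was 200.5 RPKM. The collagen col-12 had 12.2, 516, 200.1, 123, 26.5 and 64.7 RPKM at 18 to 28 h, against 3.91, 2.05, 1.83, 1.42, 1.14 and 1.09 RPKM at 6 to 16 h, and a change of 4.89 ± 0.74 (adjusted p = 0.00164). It too was highest at 20 h and lay apart in the windows. In wild type both were already up late in the first window. There col-130 had 44.4 RPKM at 14 h and 265 RPKM at 16 h, and col-12 had 57.0 and 384 RPKM.

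Others were already high late in the first window. The collagen col-17 (F11G11.10) had 2929, 897, 115, 115, 721 and 2614 RPKM at 18 to 28 h, against 0.0364, 0.231, 0.363, 14.7, 533 and 959 RPKM at 6 to 16 h, a change of 5.36 ± 1.86 (adjusted p = 0.0363). Its time course resembles that of dpy-5, as does that of col-73 (5.09 ± 1.73, adjusted p = 0.0336). Both calls were lost in 8 of 12 fits without 1 library, at changes of 4.58 to 6.55 for col-17 and 4.40 to 6.19 for col-73, with adjusted p up to 0.081 and 0.0753. Without 6 and 18 h their changes were 4.14 and 4.00, with adjusted p of 0.125 and 0.117, and over 22 to 28 h against 10 to 16 h 2.79 and 2.83, with adjusted p of 0.329 and 0.307.

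A further set was on at the start of the first window and declined through it. The collagen col-144 had 522, 4252, 4445, 4211, 1837 and 1228 RPKM at 18 to 28 h, against 1327, 1242, 1546, 916, 267 and 126 RPKM at 6 to 16 h, and did not pass at 1.70 ± 0.72 (adjusted p = 0.0783). Its lowest later library was that of 18 h, whereas the 6 h library was among the high ones of the earlier window. The same order was seen in col-39 (2.06 ± 1.13, adjusted p = 0.162), with 5.27 to 453 RPKM (median 176) at 18 to 28 h, against 2.74 to 103 RPKM (median 29.9) at 6 to 16 h. These col-144 and col-39 time courses were picked out after the values were seen.

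Hedgehog-related genes encode secreted proteins of the epidermis and glia that are tied to molting, although the worm has no full hedgehog pathway. Of 36 tested, 9 were called higher and 0 lower (25.0%, against 2.38% of all genes called higher), with a median change of 1.53. The ground-like gene grl-16 (Y65B4BR.6) had the largest change of the genes picked by the naming rule. It stood at 394, 631, 67.5, 35.4, 44 and 351 RPKM at 18 to 28 h, against 0.913, 0.258, 0.165, 0.251, 12.2 and 40.7 RPKM at 6 to 16 h, a change of 5.37 ± 1.06 (adjusted p = 0.00324), and its lowest later library was below its 16 h library. The groundhog gene grd-14 (T01B10.2) had 26.6, 143, 19.5, 12.8, 7.34 and 61.4 RPKM at 18 to 28 h, against 0.272, 0.133, 0.2, 0.142, 0.652 and 2.05 RPKM at 6 to 16 h, with no overlap and a change of 4.30 ± 0.60 (adjusted p = 0.00141). For grd-6 (T18H9.1) the windows were also apart, with 2.53 to 74.7 RPKM (median 10.2) at 18 to 28 h, against 0.0418 to 0.634 RPKM (median 0.164) at 6 to 16 h, and a change of 3.40 ± 0.57 (adjusted p = 0.00207). Without 6 and 18 h, 7 of the list were called, without 16 h 15 were, and over 20 to 30 h with pairs 14 h apart as a block 19 were.

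Patched-related membrane proteins share a domain with the hedgehog receptor and act in molting and lipid handling. Of 25 tested, 1 was called higher and 0 lower (4%, against 2.38% of all genes called higher), with a median of 0.61. This was ptr-20 (Y53F4B.28), at 2.35 to 30.9 RPKM (median 6.75) at 18 to 28 h, against 0.79 to 3.23 RPKM (median 1.2) at 6 to 16 h, a change of 1.75 ± 0.51 (adjusted p = 0.0175). Its change was 1.51 without 6 and 18 h, with an adjusted p of 0.0603, and 0.85 (adjusted p = 0.108) over 22 to 28 h against 10 to 16 h. The list count was 4 without 22, 24 or 16 h, 2 without 14 h, 3 with pairs 12 h apart as a block and 6 over 20 to 30 h with pairs 14 h apart as a block.

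Astacins are secreted zinc proteases, some of which process collagens or free the old cuticle. Of 24 tested, 7 were called higher and 0 lower (29.2%, against 2.38% of all genes called higher), and the median change was 1.09. The protease nas-38 (F57C12.1), known for its part in the sleep that goes with molting, had 18, 77.7, 14.5, 7.66, 3.91 and 16.6 RPKM at 18 to 28 h, against 0.598, 0.284, 0.201, 0.107, 1.31 and 3.15 RPKM at 6 to 16 h. The windows were apart, and the change was 3.22 ± 0.57 (adjusted p = 0.00234). The genes nas-7 and nas-14 changed by 1.93 ± 0.56 (adjusted p = 0.0166) and 2.21 ± 0.81 (adjusted p = 0.0452). The call of nas-14 was lost in 9 of 12 fits without 1 library (adjusted p up to 0.0972), over 22 to 28 h against 10 to 16 h (1.13, adjusted p = 0.366), and at a pseudocount of 5 RPKM (1.30, adjusted p = 0.0606). Without 6 and 18 h the list count was 3, it was 4 without 18, 28, 8 or 12 h, and 2 each over 22 to 28 h against 10 to 16 h and at a pseudocount of 5 RPKM.

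Molting factors are genes needed to shed the cuticle. Of 25 tested, 2 were called higher and 0 lower (8%, against 2.38% of all genes called higher), with a median of 0.31. The 2 were nas-36 (C26C6.3), an astacin needed for ecdysis, and bli-5 (F45G2.5), a protease-inhibitor-like gene needed for an intact cuticle. The first had 1.7 to 24.1 RPKM (median 4.91) at 18 to 28 h, against 0.471 to 2.25 RPKM (median 0.804) at 6 to 16 h, and changed by 1.79 ± 0.47 (adjusted p = 0.0103). The second had 4.71, 8.14, 1.5, 1.51, 1.73 and 6.32 RPKM at 18 to 28 h, against 0.143, 0.279, 0.349, 0.0743, 0.683 and 0.777 RPKM at 6 to 16 h, with no overlap and a change of 1.67 ± 0.34 (adjusted p = 0.00368). The call of nas-36 was lost over 22 to 28 h against 10 to 16 h (1.14, adjusted p = 0.0595), and both were under 1 log2 at a pseudocount of 5 RPKM (0.92 for nas-36 and 0.68 for bli-5). Over 20 to 30 h with pairs 14 h apart as a block, 4 of the list were called. The molting gene mlt-10 did not pass at 1.95 ± 1.00 (adjusted p = 0.139), with 6.75 to 205 RPKM (median 51.8) at 18 to 28 h, against 2.93 to 73.2 RPKM (median 6.06) at 6 to 16 h. Nuclear receptors and GATA factors of the epidermis and seam gave 0 calls among 15 tested, against 2.38% of all genes called higher and 2% lower, with a median of -0.26. Among them nhr-23, which drives molting genes, had 4.33 to 31.5 RPKM (median 17.7) at 18 to 28 h, against 7.74 to 48.1 RPKM (median 33.5) at 6 to 16 h (difference -0.64 ± 0.50, adjusted p = 0.33).

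The abu genes encode glutamine- and cysteine-rich proteins of the pharyngeal cuticle. All 6 tested members with a deposited abu name were called higher, against 2.38% of all genes, with a median change of 2.31. All later libraries lay above all earlier ones for 4, against 2% of all genes. The gene abu-8 (C03A7.14) had 14.6, 259, 49.4, 23.3, 5.4 and 18.7 RPKM at 18 to 28 h, against 3.64, 1.85, 2.88, 1.98, 2.26 and 0.756 RPKM at 6 to 16 h, a change of 3.24 ± 0.70 (adjusted p = 0.0047). The 20 h library stood highest. The same library was highest for abu-7 (2.67 ± 0.63, adjusted p = 0.00655) and abu-6 (2.42 ± 0.61, adjusted p = 0.00856), whose values ran in parallel. These genes are alike in sequence, and the treatment of reads that fit more than 1 of them is unknown here. In wild type 0 of the 6 were called, at a median of 2.2. The count was 5 without 6 and 18 h, and 4 without 8 h.

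Epidermal antimicrobial peptides, small secreted peptides induced by infection and wounding, went both ways. Of 17 tested, 4 were called higher (23.5%) and 3 lower (17.6%), against 2.38% and 2% of all genes, with a median of 0.07. The peptide gene nlp-24 (F35B12.7) had 93.7, 958, 875, 731, 386 and 431 RPKM at 18 to 28 h, against 173, 119, 142, 148, 145 and 96.9 RPKM at 6 to 16 h. All later libraries but that of 18 h were above all earlier ones, and the change was 1.76 ± 0.48 (adjusted p = 0.0123). Higher calls were also made for nlp-33 (1.39 ± 0.27, adjusted p = 0.00317) and nlp-30 (1.35 ± 0.46, adjusted p = 0.0331). The call of nlp-30 was lost in 7 of 12 fits without 1 library, with adjusted p up to 0.0742, at 0.0986 without 6 and 18 h, and over 22 to 28 h against 10 to 16 h (0.60, adjusted p = 0.323). The caenacin genes cnc-11, cnc-2 and cnc-6 changed by -1.29 ± 0.23, -1.06 ± 0.21 and -1.04 ± 0.20, with windows apart. Rescaled, 5 members were called higher and 1 lower, and at a pseudocount of 5 RPKM the lower count was 0. The higher count was 2 over 22 to 28 h against 10 to 16 h, with pairs 12 h apart as a block, and without 20, 28, 8, 10 or 12 h, and the lower count was 2 without 20, 22, 26, 28, 6 or 8 h.

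Other genes with large increases had no place in these lists, which held abu genes by deposited name. The gene F53F1.5 (now cut-2) had 127 to 2351 RPKM (median 910.2) at 18 to 28 h, against 5.58 to 349 RPKM (median 7.79) at 6 to 16 h, a change of 4.76 ± 1.17 (adjusted p = 0.00795) that was not called over 22 to 28 h against 10 to 16 h (3.02, adjusted p = 0.117). The gene F35B3.4 (now dbd-20) changed by 3.79 ± 0.68 (adjusted p = 0.00241), Y47D3B.6 (now idpc-1) by 3.49 ± 0.65 (adjusted p = 0.00275) and pqn-95 (now abu-14), a gene with a glutamine- and asparagine-rich product, by 3.72 ± 0.74 (adjusted p = 0.00327). For all 3 the windows were apart and the 20 h library was the highest. The lipase-related gene lips-6 changed by 3.55 ± 1.06 (adjusted p = 0.0192), with 2.09 to 135 RPKM (median 40.1) at 18 to 28 h, against 0 to 13.3 RPKM (median 0.189) at 6 to 16 h, and by 2.92 (adjusted p = 0.0693) without 6 and 18 h, or 2.18 (adjusted p = 0.22) over 22 to 28 h against 10 to 16 h.

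By deposited gene name, the higher calls included 13 of 17 tested nspc and 9 of 12 tested nspb genes, families of small nematode-specific peptides, and 12 of 59 pqn genes. Of 6 tested phat genes, which encode pharyngeal gland proteins, 4 were called higher and 1 lower. Over all genes 2.38% were called higher and 2% lower. These families were counted after the calls were seen, and members of the peptide families can share reads. The largest change of any gene was that of Y47D7A.13, also chosen after its values were seen, with 634, 2794, 633, 337, 121 and 811 RPKM at 18 to 28 h, against 3.49, 1.74, 1.83, 1.32, 11.9 and 49.5 RPKM at 6 to 16 h, a change of 6.56 ± 0.86 (adjusted p = 0.00122). The windows did not overlap, and the next largest were F41F3.3 (5.56 ± 1.33) and ZK180.5 (5.48 ± 1.02).

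Genes that fell did so by smaller amounts, and 156 of the 258 had windows apart. The largest of all, chosen after their values were seen, carry sequence names only: Y119C1B.12 (-2.90 ± 0.46), C44H9.7 (-2.60 ± 0.31) and R05A10.1 (-2.59 ± 0.29). The largest fall among genes with a name was that of R06F6.7 (now msrp-7), with 22.7, 10, 15, 15.2, 12.2 and 8.4 RPKM at 18 to 28 h, against 82.1, 80.2, 64.9, 54.1, 49.5 and 42.8 RPKM at 6 to 16 h, a change of -2.11 ± 0.23 (adjusted p = 0.00117). The secreted CAP-domain gene scl-5 (C39E9.2) had 17.6, 4.56, 8.72, 11.4, 8.49 and 5.72 RPKM at 18 to 28 h, against 33.7, 41.3, 39.8, 39.5, 37.4 and 39.9 RPKM at 6 to 16 h, and changed by -2.04 ± 0.24 (adjusted p = 0.00117). The later libraries all lay below the earlier ones for both. A second gene of that family, scl-24, changed by -1.79 ± 0.32 (adjusted p = 0.00229). Of 7 tested scl genes 4 were called lower, against 2% of all genes, a count made after the calls were seen.

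The fatty acid and retinol binding gene far-3 (F15B9.1) had 6.49, 2.46, 2.4, 1.85, 1.72 and 2.23 RPKM at 18 to 28 h, against 16.1, 13.3, 9.61, 14, 13.1 and 13.8 RPKM at 6 to 16 h, a change of -1.97 ± 0.22 (adjusted p = 0.00117). The gene dct-19 had 3.16, 0.683, 0.365, 0.232, 0.241 and 0.273 RPKM at 18 to 28 h, against 5.66, 5.13, 5.07, 5.69, 7.2 and 4.95 RPKM at 6 to 16 h, a change of -2.01 ± 0.27 (adjusted p = 0.00122). In both the windows were apart and the 18 h library was the highest of the later window. The paired-box factor pax-3, which acts in epidermal cell fate, had 2.32, 2.62, 3.88, 4.21, 4.59 and 3.38 RPKM at 18 to 28 h, against 12, 15.9, 19.8, 16.6, 7.87 and 4.91 RPKM at 6 to 16 h, and changed by -1.52 ± 0.29 (adjusted p = 0.00279).

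The other named falls were those of tag-293 (-1.88 ± 0.36), C49G7.5 (now irg-2, an infection response gene; -1.67 ± 0.29), Y38E10A.25 (now nspe-6; -1.65 ± 0.32), T01C4.1 (now lmd-5; -1.58 ± 0.18), the bZIP factor F23F12.9 (now zip-8; -1.55 ± 0.30) and the ferroportin-related fpn-1.2 (-1.55 ± 0.24). Their adjusted p lay between 0.00117 and 0.00319, the windows were apart for all but nspe-6, and all 12 genes of this group of largest named falls were called also after rescaling and without any 1 library. A pseudocount of 5 RPKM ended 5 of the 12 calls by size, with -0.88 for dct-19, -0.84 for tag-293, -0.84 for scl-24, -0.91 for Y38E10A.25 and -0.92 for fpn-1.2.

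Of 27 cell cycle genes tested, 2 were called lower (7.41%, against 2% of all genes) and 0 higher. Their median was -0.42 on the deposited scale and -0.15 rescaled. The cyclin D gene cyd-1 (Y38F1A.5) had 19.1, 7.66, 8.42, 10, 11.9 and 8.21 RPKM at 18 to 28 h, against 14.2, 18.2, 21.1, 28.4, 33.3 and 29.4 RPKM at 6 to 16 h, a change of -1.09 ± 0.24 (adjusted p = 0.00533). The mitotic kinase cdk-1 (T05G5.3) had 70.6, 33.8, 19.9, 20.6, 27.5 and 36.7 RPKM at 18 to 28 h, against 54.6, 52.4, 55.6, 68.9, 86.9 and 88.2 RPKM at 6 to 16 h, a change of -1.04 ± 0.28 (adjusted p = 0.0114). In both the 18 h library was high and like the earlier window, and the other 5 lay below every earlier library. Neither was called after rescaling (-0.82 for cyd-1, -0.76 for cdk-1) or at a pseudocount of 5 RPKM (-0.87 and -0.95), whereas over 22 to 28 h against 10 to 16 h 4 of the list were called lower. The call of cyd-1 was lost without 14 h (-0.99) and that of cdk-1 without 22, 24, 14 or 16 h (-0.91 to -0.96).

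None of 27 DNA replication entries was called (2 were lower over 22 to 28 h against 10 to 16 h), against 2.38% of all genes called higher and 2% lower. Their median was -0.60 (-0.32 rescaled), and all 6 later libraries lay below all earlier ones for 12 of them, against 15.4% of all genes. The helicase subunit mcm-5 had 22.1 to 36.8 RPKM (median 30.5) at 18 to 28 h, against 53.5 to 59.1 RPKM (median 55.9) at 6 to 16 h, and differed by -0.92 ± 0.12 (adjusted p = 0.00122), short of 1 log2. The sliding clamp pcn-1 had 48.7 to 78 RPKM (median 63.6) at 18 to 28 h, against 96.3 to 118 RPKM (median 105) at 6 to 16 h (-0.76 ± 0.12, adjusted p = 0.00179).

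Of 30 FMRFamide-like neuropeptide genes tested, 2 were called lower (6.67%, against 2% of all genes) and 0 higher, with a median of -0.70 (-0.42 rescaled). For 19 of 30 all later libraries lay below all earlier ones, against 15.4% of all genes. The gene flp-17 (C52D10.11) had 70.3, 59.8, 51.5, 52.4, 46.8 and 37.9 RPKM at 18 to 28 h, against 154, 137, 108, 84.4, 79.6 and 102 RPKM at 6 to 16 h, a change of -1.03 ± 0.18 (adjusted p = 0.00229), and flp-18 (Y48D7A.2) changed by -1.02 ± 0.16 (adjusted p = 0.00176). Neither was called rescaled (-0.75 and -0.74), at a pseudocount of 5 RPKM (-0.98 and -0.96) or over 22 to 28 h against 10 to 16 h (-0.97 and -0.99). The list count was 0 without 28, 6 or 8 h, 1 without 26 h, 3 without 20 or 16 h, 4 without 18 or 12 h and 5 without 14 h. None of 25 genes of neurotransmission was called (1 was higher over 22 to 28 h against 10 to 16 h), against 2.38% of all genes called higher and 2% lower. Their median was -0.47 (-0.19 rescaled). In whole larvae, fewer neurons relative to a growing body and less RNA per neuron cannot be told apart.

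Of 26 insulin-like peptide genes tested, 2 were called higher (7.69%) and 1 lower (3.85%), against 2.38% and 2% of all genes, with a median of -0.45. The gene ins-9 (C06E2.8) had 6.27, 5.54, 5.5, 5.17, 5.3 and 8.89 RPKM at 18 to 28 h, against 1.15, 0.511, 1.23, 1.64, 3.08 and 3.01 RPKM at 6 to 16 h, with windows apart and a change of 1.43 ± 0.24 (adjusted p = 0.00196). The gene ins-13 changed by 1.49 ± 0.35 (adjusted p = 0.00645), with 0.219 to 6.31 RPKM (median 2.76) at 18 to 28 h, against 0.091 to 0.241 RPKM (median 0.154) at 6 to 16 h. The lower call, ins-11 (-1.03 ± 0.26, adjusted p = 0.00876), was lost after rescaling (-0.87) and without 22, 24, 28, 6 or 8 h (each under 1 log2 in size). At a pseudocount of 5 RPKM none of the 3 was called (0.72 for ins-9, 0.55 for ins-13 and -0.40 for ins-11). At a pseudocount of 0.1 RPKM 4 of the list were called lower, and 2 over 22 to 28 h against 10 to 16 h. The lower count was 0 without 28, 6 or 8 h, 1 without 26 or 10 h, 2 without 24 h, 3 without 20, 22, 12, 14 or 16 h and 4 without 18 h.

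Of 23 tested genes of P granules, the RNA-protein bodies of germ cells, and of germline RNA control, 3 were called higher and 0 lower. Over all genes 2.38% were called higher and 2% lower. The median change of the list was 0.53. For 14 of the 23 all later libraries lay above all earlier ones, which held for 2% of all genes. The Vasa-related helicase glh-1 (T21G5.3) had 29.5, 34.5, 31.3, 42.2, 43.3 and 62.4 RPKM at 18 to 28 h, against 8.51, 14, 15.9, 19.3, 20.7 and 24.3 RPKM at 6 to 16 h, a change of 1.22 ± 0.24 (adjusted p = 0.00323). The P granule scaffold pgl-1 (ZK381.4) had 19.7 to 34.8 RPKM (median 27) at 18 to 28 h, against 7.2 to 17.5 RPKM (median 11.7) at 6 to 16 h, a change of 1.14 ± 0.20 (adjusted p = 0.00218). The RNA-binding protein gene gld-1 (T23G11.3), a regulator of germ cell differentiation, had 6.03, 8.45, 9.27, 12, 11.5 and 11 RPKM at 18 to 28 h, against 2.2, 3.94, 5.34, 5.24, 4.96 and 3.97 RPKM at 6 to 16 h, a change of 1.03 ± 0.19 (adjusted p = 0.0028).

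All 3 genes lay apart in the windows, and within each window the first library was the lowest. At 30 to 40 h glh-1 averaged 91.4 RPKM, pgl-1 49.8 RPKM and gld-1 14.8 RPKM. The call of gld-1, near the threshold, was lost without 24, 26, 28 or 6 h (0.89 to 0.99), while rescaling brought the list to 5 higher calls. At a pseudocount of 5 RPKM the list held 1, with 0.92 for pgl-1 and 0.66 for gld-1. Without 24, 26, 28 or 6 h the list held 2. None of 26 genes of the meiotic chromosome axis and synapsis was called, against 2.38% of all genes called higher and 2% lower, with a median of 0.26. As for neurons, more germ cells and more RNA per germ cell cannot be told apart.

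The heterochronic genes, which set the order of larval fates and include the targets of lin-4, gave 0 calls among 15 tested. Over all genes 2.38% were called higher and 2% lower, so 0 calls in so short a list does not set it apart. Its median was -0.06, which becomes 0.23 rescaled. The target lin-14 (T25C12.1), a transcription factor of first-stage fates, had 98.8, 163, 113, 102, 79.2 and 66.7 RPKM at 18 to 28 h, against 150.3, 147, 137, 127, 102 and 86.4 RPKM at 6 to 16 h, a difference of -0.30 ± 0.21 that did not pass (adjusted p = 0.27). Within the windows it was highest at 20 h and at 6 h and lower at each later hour of the same window, and its 20 h value exceeded the 6 values of 6 to 16 h. Outside them it was at 204 RPKM in the 0 h library and 186 RPKM in that of 2 h, and the 30 h library had 126 RPKM. The other target, lin-28 (F02E9.2), whose RNA-binding product holds back later fates, had 56, 47.6, 49.1, 47.9, 48.6 and 42.5 RPKM at 18 to 28 h, against 89.4, 77.3, 74.9, 70.2, 65.1 and 73.5 RPKM at 6 to 16 h. All later libraries were below all earlier ones, and the difference of -0.61 ± 0.08 (adjusted p = 0.00125) was short of 1 log2. On the rescaled values it was -0.33.

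In wild type lin-28 had 15.6, 18.1, 15.9, 13.6, 10.7 and 8 RPKM at 18 to 28 h, against 76.4, 75.5, 76.4, 47.5, 25.3 and 20.2 RPKM at 6 to 16 h, a change of -1.76 ± 0.35 (adjusted p = 0.00584). The difference of changes, mutant minus wild type, was 1.15 ± 0.37, with the smaller fall in the mutant, and did not pass (adjusted p = 0.0837). For lin-14 wild type had 72.9, 69.8, 44.4, 31, 39.1 and 46.6 RPKM at 18 to 28 h, against 135, 115, 100.2, 64.2, 44.7 and 54.4 RPKM at 6 to 16 h, and the difference of changes was 0.40 ± 0.38 (adjusted p = 0.595).

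Downstream of lin-28, lin-46 (R186.4), a scaffold-like protein that promotes later fates, had 2.7, 3.41, 2.79, 3.1, 2.33 and 2.07 RPKM in the mutant at 18 to 28 h, against 5.55, 4.56, 3.5, 3.47, 1.71 and 1.92 RPKM at 6 to 16 h (difference -0.19 ± 0.21, adjusted p = 0.482). In wild type it had 7.32, 7.51, 4.2, 12.3, 13.3 and 18.5 RPKM at 18 to 28 h, against 3.25, 2.8, 2.69, 3.41, 7.37 and 10.9 RPKM at 6 to 16 h. The difference of changes, -1.14 ± 0.44, did not pass (adjusted p = 0.135). The zinc-finger gene hbl-1, which promotes second-stage fates, differed by -0.28 ± 0.18 (adjusted p = 0.243), and the TRIM-NHL gene lin-41, which holds off adult fates, by 0.03 ± 0.10 (adjusted p = 0.822).

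Heterochronic genes that cycle with the molts had wide ranges. The Period homolog lin-42 (F47F6.1) had 297, 44, 28.2, 43.9, 143 and 208 RPKM at 18 to 28 h, against 1.66, 2.47, 7.61, 40.3, 204 and 234 RPKM at 6 to 16 h, a difference of 1.95 ± 1.19 that did not pass (adjusted p = 0.208). The difference was 0.98 without 6 and 18 h and 0.30 over 22 to 28 h against 10 to 16 h. It was highest at 18 h, and 14 to 16 h and 26 to 28 h were high as well. With the later window at 20 to 30 h and pairs 14 h apart as a block its change was 1.75 (adjusted p = 0.0486). The zinc-finger gene lin-29, which triggers the larva-to-adult switch, differed by 0.45 ± 0.38 (adjusted p = 0.361), and its cofactor mab-10 by 1.17 ± 0.83 (adjusted p = 0.28). The kinase kin-20 differed by 0.44 ± 0.24 (adjusted p = 0.157) and the steroid receptor daf-12 by 0.12 ± 0.11 (adjusted p = 0.399). Of genes of the microRNA machinery, ain-1, alg-1, alg-2 and dcr-1 differed by -0.06 ± 0.08, -0.07 ± 0.16, 0.09 ± 0.11 and -0.16 ± 0.07. Together with lin-66, another member of the list, at -0.07 ± 0.07, their adjusted p lay between 0.0914 and 0.74.

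**Figure D4:**
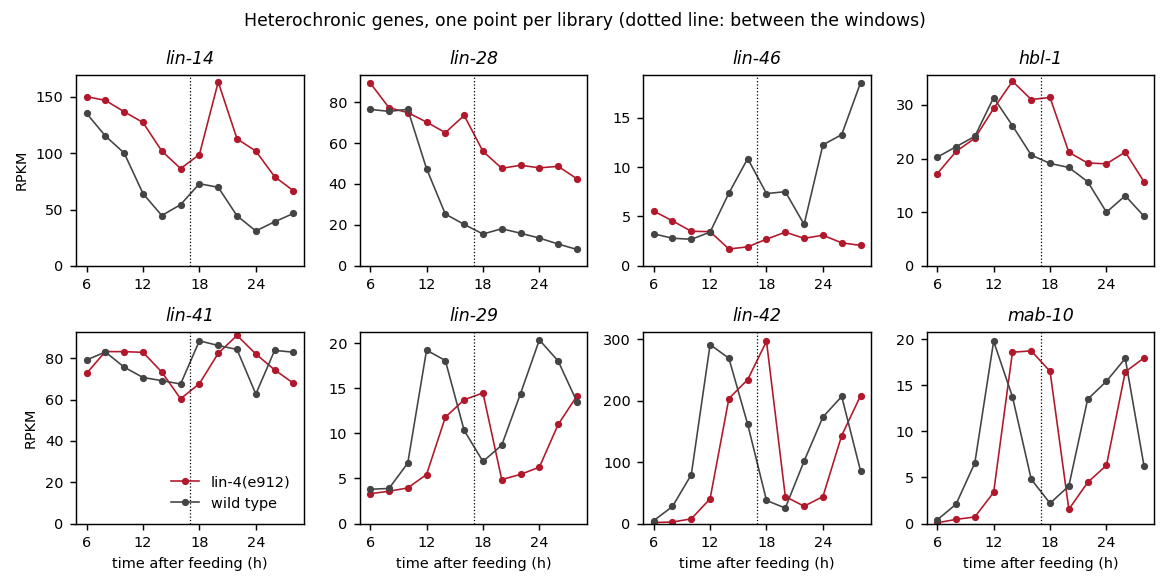
RPKM (vertical) of 8 heterochronic genes against time after feeding (horizontal, h) in lin-4(e912) (red) and wild type at 20C (grey), one point per library, with a dotted line between 6 to 16 h and 18 to 28 h. lin-28 lies at 42.5 to 56.0 RPKM at 18 to 28 h in the mutant and at 8.00 to 18.1 RPKM in wild type, and lin-42, lin-29 and mab-10 swing widely in both.

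Over the same hours, wild type had 184 genes called higher (1.44%) and 172 lower (1.35%) of 12783 tested. Of the mutant's 306 higher calls, 64 were also called higher in wild type, which is 20.9% of the mutant's and 34.8% of wild type's calls. Of its 258 lower calls, 67 were also called lower in wild type, 26.0% of the mutant's and 39% of wild type's. None was called in opposite directions. A call in one population and not in the other is no difference, so the difference of the changes was tested across 12869 genes. Equal hours need not be equal phases in mutant and wild type. Over 6 to 28 h dpy-5 was highest at 18 h in the mutant and at 14 h in wild type. For dpy-7 these hours were 16 and 12 h, and for lin-42 18 and 12 h. The shared calls and the differences of changes were not adjusted for phase.

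The mutant's change was above that of wild type in 7 genes (0.0544%) and below it in 36 (0.28%), with 2626 at an unadjusted p under 0.05. With labelled time, which both populations share, as a block, the counts were 26 and 74. A pseudocount of 5 RPKM gave 2 and 14. The count above was 1 to 4 when the mutant library of 18, 20, 24, 28, 6, 8, 10 or 12 h or the wild-type library of 20, 22, 24, 28 or 12 h was left out, and 12 without wild type at 18 h. The count below was 21 without the mutant at 8 h, 23 without wild type at 12 h and 56 without the mutant at 16 h. Of the cuticle lists named above, collagens included, no member was among the 43. For dpy-5 the difference of changes was 2.59 ± 2.61 (adjusted p = 0.626), for col-130 1.42 ± 1.43 (adjusted p = 0.624) and for abu-8 0.88 ± 1.41 (adjusted p = 0.761). In wild type dpy-5 had 1176, 241, 271, 1666, 1991 and 1851 RPKM at 18 to 28 h, against 2.65, 3.94, 68, 1069, 3053 and 2814 RPKM at 6 to 16 h, with its highest library at 14 h. Rescaled, 6 genes were above (0.0466%) and 15 below (0.117%), and the median difference of all genes went to 0.00 in place of -0.14.

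The named differences all had the mutant's change below that of wild type. The F-box gene fbxa-72 (F31F4.15) had 2.38, 4.45, 11.4, 8.42, 11.9 and 7.51 RPKM in the mutant at 18 to 28 h, against 6.9, 6.48, 13.2, 8.96, 6.97 and 4.32 RPKM at 6 to 16 h. In wild type it had 19.2, 32.5, 35.7, 42.3, 24.3 and 51.4 RPKM at 18 to 28 h, against 6.84, 6.1, 9.7, 4.86, 3.79 and 8.27 RPKM at 6 to 16 h. It was thus higher in the later window in wild type, where the windows were apart, and the difference of changes was -2.29 ± 0.43 (adjusted p = 0.0144).

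The Dachshund-related cofactor dac-1 (B0412.1) had 1.12, 0.978, 0.651, 0.812, 0.612 and 0.509 RPKM in the mutant at 18 to 28 h, against 10.7, 2.19, 1.83, 1.38, 1.12 and 1.25 RPKM at 6 to 16 h, and in wild type 11.4, 14.4, 8.75, 5.79, 4.7 and 8.93 RPKM at 18 to 28 h, against 5.24, 2.34, 1.94, 1.82, 2.87 and 6.34 RPKM at 6 to 16 h. The difference of changes was -2.08 ± 0.48 (adjusted p = 0.0271), with adjusted p of 0.0521 without the mutant's 8 h library and 0.0507 without the wild type's 12 h library. The gene C36C5.5 (now exh-1) averaged 0.696 ± 0.314 RPKM in the mutant at 18 to 28 h, against 0.0657 ± 0.0598 RPKM at 6 to 16 h (SD, n = 6 each), too low for a test there. In wild type it had 2.15, 4.77, 4.95, 12.9, 14.4 and 22.1 RPKM at 18 to 28 h, against 0.129, 0.0353, 0.07, 0.384, 0.937 and 2.21 RPKM at 6 to 16 h. Its difference of -1.95 ± 0.51 (adjusted p = 0.0382) was lost in 16 of 24 fits without 1 library (adjusted p up to 0.0717), after rescaling (adjusted p = 0.0683) and at a pseudocount of 0.1 RPKM (adjusted p = 0.202). The mutant's means lie below the pseudocount of 1 RPKM.

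The scramblase-related gene scrm-3 (C04E12.7) had 3.35, 2.92, 1.78, 1.56, 2.65 and 2.45 RPKM in the mutant at 18 to 28 h, against 3.06, 3.63, 3.59, 2.82, 3.44 and 2.97 RPKM at 6 to 16 h, and in wild type 3.81, 4.71, 5.61, 6.63, 6.36 and 4.8 RPKM at 18 to 28 h, against 1.27, 1.65, 1.43, 2.23, 2.88 and 2.54 RPKM at 6 to 16 h. The windows were apart in wild type and overlapped in the mutant, and the difference of changes was -1.41 ± 0.21 (adjusted p = 0.00374), which was -0.71 and so short of 1 log2 at a pseudocount of 5 RPKM. The fatty acid elongase elo-5 (F41H10.7), which makes branched-chain fatty acids that larvae need for growth, had 122, 189, 185, 217, 169.5 and 98.3 RPKM in the mutant at 18 to 28 h, against 214, 224, 219, 213, 167 and 158 RPKM at 6 to 16 h. In wild type it had 179, 255, 262, 163, 137 and 157 RPKM at 18 to 28 h, against 56.8, 109, 121, 81.6, 78.4 and 103 RPKM at 6 to 16 h. Its difference was -1.38 ± 0.29 (adjusted p = 0.0217).

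The insulin-like gene ins-4 (ZK75.1) differed by -1.27 ± 0.34 (adjusted p = 0.0446). It had 1.36, 1.36, 2.4, 2.63, 1.52 and 1.02 RPKM in the mutant at 18 to 28 h, against 3.1, 1.75, 1.82, 1.58, 0.813 and 1.56 RPKM at 6 to 16 h, and in wild type 3.49, 9.5, 14, 10.8, 4.53 and 5.86 RPKM at 18 to 28 h, against 3.49, 2.03, 2.5, 2.66, 2.06 and 2.37 RPKM at 6 to 16 h. This call was lost in 18 of 24 fits without 1 library (adjusted p up to 0.0844), after rescaling (adjusted p = 0.0778), and at pseudocounts of 0.1 RPKM (adjusted p = 0.0594) and 5 RPKM (-0.75). Further genes of the 36, picked after their values were seen, were elo-6 (-1.16), an elongase that acts beside elo-5, lin-22 (-1.06), a bHLH factor of seam cell fate, and the chemoreceptor-like gene str-168 (-1.03). The 7 genes with the mutant's change above that of wild type, C35E7.4, E01G4.5, F34D10.4, F45E10.2, F59A6.10, T05A7.3 and W02D7.11, carried sequence names only.

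**Figure D5:**
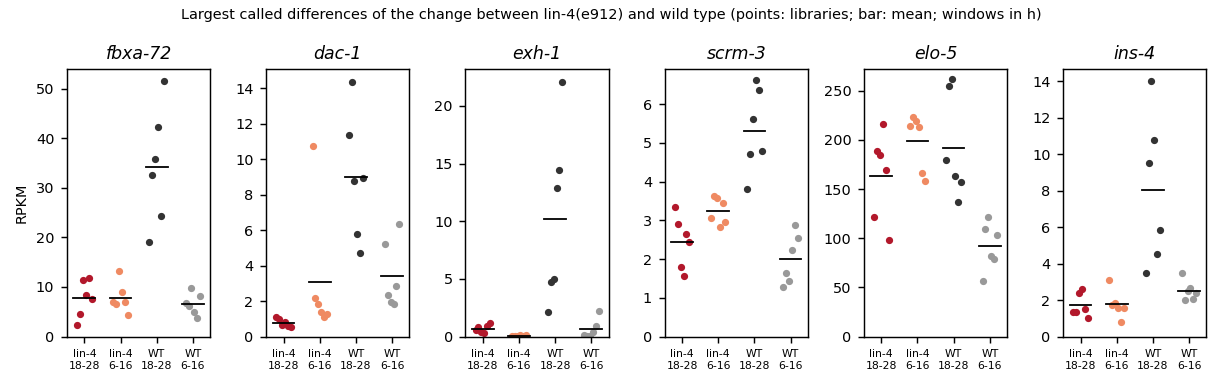
RPKM (vertical) of the 6 named genes whose change differed between lin-4(e912) and wild type at 20C, with points for libraries and bars for means; columns are the mutant at 18 to 28 h and 6 to 16 h, then wild type at 18 to 28 h and 6 to 16 h. In wild type the later window has the higher mean for all 6, whereas in the mutant fbxa-72 averages 7.68 ± 3.76 RPKM at 18 to 28 h and 7.81 ± 3.04 RPKM at 6 to 16 h (SD, n = 6 each).

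The remaining lists held few calls, against 2.38% of all genes called higher and 2% lower. Of 20 body wall muscle genes and 28 digestive genes of the intestine 0 were called in either direction, with medians of 0.33 and -0.05 (0.61 and 0.24 rescaled). Over 22 to 28 h against 10 to 16 h, 4 intestinal genes were called lower. Of 74 cytosolic ribosomal proteins and 30 proteasome subunits 0 were called, with medians of -0.01 and -0.13 (0.27 and 0.15 rescaled). Among lists with 0 limma calls, an unadjusted p under 0.05 was reached by 2 of 15 heterochronic genes, 0 of 6 furrow collagens, 6 of 15 seam and epidermis factors and 15 of 26 meiotic genes. It was reached by 23 of 27 DNA replication entries, 19 of 25 neurotransmission genes, 2 of 6 spermatogenesis genes and 13 of 20 muscle genes, and by 8 of 28 intestinal, 14 of 74 ribosomal and 1 of 30 proteasome genes, against 6451 of 12881 genes in all. The myosin heavy chain unc-54, the main motor of body wall muscle, differed by 0.71 ± 0.14 (adjusted p = 0.00294), with 568 to 1069 RPKM (median 885) at 18 to 28 h, against 479.5 to 582 RPKM (median 521) at 6 to 16 h.

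Among 19 vulva and gonad genes, 1 was called higher and 1 lower, at a median of -0.12 (0.15 rescaled). Each is 5.26% of the list, against 2.38% and 2% of all genes. The forkhead factor lin-31, needed for vulval fates, had 9.95, 8.01, 7.38, 8.1, 6.79 and 5.84 RPKM at 18 to 28 h, against 0.672, 1.47, 2.48, 3.77, 6.99 and 5.86 RPKM at 6 to 16 h, a change of 1.12 ± 0.34 (adjusted p = 0.0202). This was 0.88 without 6 h, 0.99 without 8 h, 0.81 without 6 and 18 h, 0.54 over 22 to 28 h against 10 to 16 h and 0.61 at a pseudocount of 5 RPKM. The fibroblast growth factor egl-17 had 3.27, 1.53, 2, 3.07, 2.49 and 3.03 RPKM at 18 to 28 h, against 5.51, 8.1, 6, 5.85, 6.3 and 7.01 RPKM at 6 to 16 h, with windows apart, and changed by -1.08 ± 0.14 (adjusted p = 0.00122), or -0.99 without 20 h, -0.85 rescaled and -0.60 at a pseudocount of 5 RPKM. Over 22 to 28 h against 10 to 16 h, 3 of the list were called lower and 0 higher. Among 13 starvation and DAF-16 target genes, 1 was called higher and 1 lower (7.69% each, against 2.38% and 2% of all genes). The higher call was lips-17 (1.65 ± 0.55, adjusted p = 0.0311). It was lost without 22, 10, 12, 14 or 16 h (adjusted p up to 0.0589) and at a pseudocount of 5 RPKM (0.82). The gene dod-3 was called lower (-1.73 ± 0.60, adjusted p = 0.0364), with 49.1, 7.26, 4.99, 5.45, 1.8 and 2.28 RPKM at 18 to 28 h, against 25.8, 13.8, 21.3, 20.2, 19.7 and 50.1 RPKM at 6 to 16 h. That call was lost in 9 of 12 fits without 1 library (adjusted p up to 0.08) after rescaling (adjusted p = 0.081), with pairs 12 h apart as a block (adjusted p = 0.0508) and at a pseudocount of 5 RPKM (adjusted p = 0.0512), and its change was -2.61 over 22 to 28 h against 10 to 16 h.

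Of 95 C-type lectin genes, secreted or membrane proteins with roles in defence, 3 were called higher (3.16%) and 6 lower (6.32%), at a median of -0.27. Over all genes the shares were 2.38% and 2%. The largest changes were those of clec-230 (2.75 ± 0.71, adjusted p = 0.00982) and, downward, clec-42 (-1.39 ± 0.22, adjusted p = 0.00179). For clec-230 the values were 1.59 to 32.7 RPKM (median 14.8) at 18 to 28 h, against 0.0651 to 4.03 RPKM (median 0.164) at 6 to 16 h, and over 22 to 28 h against 10 to 16 h it was not called (1.73, adjusted p = 0.112). The gene clec-13 changed by -1.35 ± 0.37 (adjusted p = 0.0138), by -2.04 over 22 to 28 h against 10 to 16 h and by -0.66 at a pseudocount of 5 RPKM, where 1 lectin gene was called lower. UDP-glucuronosyltransferases and cytochromes P450 are enzymes that modify foreign and internal small molecules, and 114 were tested, at a median of -0.24. Calls were 1 higher (0.877%) and 2 lower (1.75%), against 2.38% and 2% of all genes. They were ugt-62 (1.38 ± 0.38, adjusted p = 0.0137), cyp-13A5 (-1.40 ± 0.34, adjusted p = 0.00793) and ugt-9 (-1.10 ± 0.40, adjusted p = 0.0458). The call of ugt-9 was lost in 8 of 12 fits without 1 library (adjusted p up to 0.101) after rescaling (-0.82), over 22 to 28 h against 10 to 16 h (-0.33), at a pseudocount of 5 RPKM (-0.98) and with pairs 12 h apart as a block (adjusted p = 0.0992). The lower count of that list was 1 to 6 in fits without 1 library and 10 at a pseudocount of 0.1 RPKM.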

How the data were processed

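Poly(A) RNA-seq libraries of whole larvae were grouped by labelled genotype and time. The authors deposited 1 table of RPKM, per the file's name. Per the submitters' processing notes, the aligner was BWA 0.5.9. Build, annotation, counting rule and strand were not given in these sources. Accordingly no coordinates are printed and near-identical or overlapping genes may share reads. The table holds 21777 entries. Entries without a gene name (2643 with RIT identifiers and 11 others, 1.743 to 2.116% of summed RPKM) were left out, 3 identifiers under 2 names were kept once, and 19120 genes remained, 18728 of them matched by sequence name to the RefSeq gene table. Empty cells were taken as 0, since the table lists no 0. Of 6968 genes under 1 RPKM, 87.7% were whole multiples of 1 read's worth in every library (relative tolerance 0.001), which gives relative depth. The absolute depth rests on 321 of 4357 genes with 1 transcript and is an estimate.

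The mutant's windows were compared with limma 3.58.1 in R 4.3.3 (moderated test with a mean-variance trend) on log2(RPKM + 1) values of genes averaging at least 1 RPKM over the 12 libraries, 6 against 6. The difference to wild type was a contrast over 24 libraries. Python 3.11.15, NumPy 2.4.6, pandas 2.3.3 and Matplotlib 3.10.9 did the rest. The fit was tested on simulated data with noise drawn independently for each gene and library. That test does not cover cycling shared by genes across hours. Named genes are the 12 largest called changes each way with the same direction in all 6 pairs and a mean of at least 5 RPKM in the higher window, at most 2 per name stem, all heterochronic genes, the 3 largest called members of each list, and the 6 largest called differences each way. A gene name was read as a hyphenated symbol in the table or, by sequence name, in RefSeq. Members and lists were chosen with earlier results of these data known. Alternatives were a pair block, other pseudocounts and filters, rescaling, no trend, a later window and leaving out libraries. Same-numbered libraries, 12 h apart, did not all deviate together, so they are not used as pairs in the main comparison.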

Additional observations from a re-analysis of the deposited data

Results flagged for a closer look

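Among 158 groups of 6 libraries of the named genes, 8 held a library whose gap to its nearest neighbour took up an unusually large share of the group's range by Dixon's test, and chance gives about 1 in 20 such groups. At 18 to 28 h one library stood high for dct-19 (3.16 RPKM at 18 h, the others 0.232 to 0.683), for far-3 (6.49 RPKM at 18 h, the others 1.72 to 2.46) and for ins-9 (8.89 RPKM at 28 h, the others 5.17 to 6.27). At 6 to 16 h one stood high for grd-6 (0.634 RPKM at 16 h, the others 0.0418 to 0.218), ugt-62 (30.1 RPKM at 16 h, the others at most 26.6), dct-19 (7.2 RPKM at 14 h, the others 4.95 to 5.69) and dac-1 (10.7 RPKM at 6 h, the others 1.12 to 2.19). One stood low for gld-1 (2.2 RPKM at 6 h, the others 3.94 to 5.34).

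The change between windows differed between the mutant and wild type, by the test of the difference itself, in 6 named genes, all with the mutant's change the lower: fbxa-72 (-2.29), dac-1 (-2.08), C36C5.5 (-1.95), scrm-3 (-1.41), elo-5 (-1.38) and ins-4 (-1.27). The calls of C36C5.5 and ins-4 were lost in 16 and 18 of 24 fits without 1 library, after rescaling, and at a pseudocount of 0.1 RPKM. At 5 RPKM scrm-3 (-0.71) and ins-4 (-0.75) were short of 1 log2.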

How the results depend on the processing

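Of the 306 higher and 258 lower calls, the block of pairs 12 h apart gave 336 and 254, with 289 and 253 of the genes shared. It ended the calls of nlp-30, dod-3 and ugt-9 among the named genes. The 6 and 18 h libraries correlated at -0.52, so the number is not a pairing. A pseudocount of 0.1 RPKM gave 355 higher and 714 lower calls and one of 5 RPKM gave 173 higher and 49 lower. Rescaling gave 81 lower. A later window of 20 to 30 h with pairs 14 h apart as a block, chosen after the correlations were seen, gave 543 higher. Without 1 library, 225 to 384 genes were called higher and 165 to 369 lower. Without a filter on low values 280 and 257 were called, with a mean of at least 5 RPKM 210 and 177, and without the trend 304 and 258. The added comparison of 22 to 28 h with 10 to 16 h gave 232 and 284, and its block 349 and 291.

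For the difference of changes (7 and 36), labelled time as a replicate block gave 26 and 74. A pseudocount of 5 RPKM gave 2 and 14, a mean of at least 5 RPKM 3 and 22, and rescaling 15 lower. Without 1 library it ranged over 1 to 12 and 21 to 56. No result turned its direction in any alternative while called. The causes were not tested. Depth limits genes near 1 RPKM, and 1 library per time point limits every comparison to the spread between hours.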
